A study of Mus musculus with 4 samples.

Results

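Glycolysis and HIF target genes were followed across 4 Illumina bead arrays of mouse CD4 T cells. The set was defined by symbol and held 38 listed genes: glycolytic enzymes, the lactate step and its export, pyruvate dehydrogenase and its kinases, and genes known as targets of hypoxia-inducible factor (HIF). Of these, 35 had a named probe, 53 probes in all, among 16590 named genes on the array, and Gpi1, Eno1 and Ldhb were not analysed here. A gene was represented by its brightest probe. Of the 35 genes, 28 were detected above background (detection p-value under 0.01) on at least 1 array and 23 on all 4, while 7 were detected on none.

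All cells came from male mice of the strain B6.Cg-Foxp3tm2Tch/J, Foxp3-GFP transgenic animals in which green fluorescent protein (GFP) reports Foxp3, the transcription factor that defines regulatory T cells (Treg). The labels state no age. Vitamin C iTreg were naive CD4 T cells stimulated with antibodies to CD3 and CD28 (1 µg/ml of each), recombinant IL-2 (15 ng/ml) and TGF-b (10 ng/ml) with 10 µg/ml vitamin C for 5 to 6 days and then re-sorted as GFP+CD25+. Conventional iTreg were made and sorted in the same way without vitamin C. Natural Treg (CD4+CD8-GFP+) and naive CD4 cells (CD4+CD8-GFP-CD44low) were sorted from lymph node and spleen without culture. Each of the 4 groups had 1 array and no replicate, so every difference describes a pair of arrays and no test of a gene was possible. The labels do not say how many animals gave each RNA.

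Glycolysis splits glucose into pyruvate in the cytosol, and lactate dehydrogenase then turns pyruvate into lactate, which leaves the cell through monocarboxylate carriers. Pyruvate dehydrogenase instead sends pyruvate into the mitochondria, and its kinases switch it off. T cells that are stimulated and dividing are known to use much more glucose than resting T cells, and HIF, made of an oxygen-regulated alpha subunit and the constant partner ARNT, switches on many glycolytic genes. The prolyl hydroxylases that mark the alpha subunit for destruction need iron and oxoglutarate, and vitamin C keeps their iron reduced, which is why this gene set bears on a culture with vitamin C.

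HIF binds DNA at the core ACGTG or GCGTG. The 250 bases before each RefSeq transcription start (GRCm38.p6) were searched for these 2 motifs on both strands. Promoters were found for 33 of the 35 genes (not Bnip3l and Ndrg1), 51 windows in all. At least 1 match lay in 40 of these windows (78.4%), against 38.6% of all 32851 promoter windows of the same length. Counted by gene, 30 of 33 (90.9%) had a match, against 41.5% of all 27025 genes. A gene counted if any of its windows matched, and the members had more windows per gene (51 for 33 genes) than all genes (32851 for 27025). The median GC content was 60.4% in the members' windows and 52.4% in all windows, and its part in the matches was not tested. Many of the genes were listed as HIF targets to begin with. A match is a run of letters and not a binding site. The windows of 4 genes are shown because their signals went different ways: Hk2 was far higher in iTreg than in naive CD4, Ldha and Tpi1 were higher in iTreg with 5 matches and none, and Pdk1 was lower in iTreg. Capitals mark ACGTG or GCGTG, read CACGT or CACGC where the match is on the other strand. The palindrome CACGTG counts on both strands, so the 5 matches of Ldha lie at 3 places. The windows are chr7:46845554-46845803 (plus strand), chr6:82774455-82774704 (minus strand), chr6:124814159-124814408 (minus strand) and chr2:71872974-71873223 (plus strand), each written in the direction of the gene. Ldha and Pdk1 each have another start in the table, whose windows hold 1 match and none.
Ldha: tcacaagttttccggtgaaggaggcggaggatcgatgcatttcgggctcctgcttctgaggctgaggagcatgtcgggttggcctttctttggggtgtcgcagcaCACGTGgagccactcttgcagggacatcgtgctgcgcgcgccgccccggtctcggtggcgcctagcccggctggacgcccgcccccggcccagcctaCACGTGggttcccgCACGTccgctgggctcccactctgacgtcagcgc
Hk2: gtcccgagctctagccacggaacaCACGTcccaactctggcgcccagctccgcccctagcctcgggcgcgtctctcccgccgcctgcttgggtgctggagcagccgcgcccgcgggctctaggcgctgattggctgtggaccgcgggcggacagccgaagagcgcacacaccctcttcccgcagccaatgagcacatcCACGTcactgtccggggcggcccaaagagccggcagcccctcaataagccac
Tpi1: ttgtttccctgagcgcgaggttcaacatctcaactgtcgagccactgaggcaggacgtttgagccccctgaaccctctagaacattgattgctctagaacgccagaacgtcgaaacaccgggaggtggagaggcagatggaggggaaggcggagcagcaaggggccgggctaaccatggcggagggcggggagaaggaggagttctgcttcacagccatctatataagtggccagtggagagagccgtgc
Pdk1: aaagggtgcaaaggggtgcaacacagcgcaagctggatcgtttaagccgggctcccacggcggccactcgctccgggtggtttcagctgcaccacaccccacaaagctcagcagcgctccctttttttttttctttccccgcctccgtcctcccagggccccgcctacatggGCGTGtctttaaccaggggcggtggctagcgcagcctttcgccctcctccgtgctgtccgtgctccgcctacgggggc

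Levels are normalized log2 signals, on which 1 unit is 2-fold, and they are compared between arrays for 1 probe and never between probes. The arrays had similar brightness before normalization, with a median intensity of 157 on the vitamin C iTreg array, 144 on that of conventional iTreg, 135 in natural Treg and 132 in naive CD4, and between 7027 and 7603 genes were detected on each. The labelled cell types were checked against marker lists. All 4 T cell markers with a probe (Cd3e, Cd3d, Cd3g and Cd4) were detected on every array. Of 5 Treg markers, Foxp3 and Il2ra were detected on the 3 Treg arrays and not on naive CD4, Ikzf2, which encodes Helios, on natural Treg only, and Ctla4 and Tnfrsf18 on all 4 arrays, with naive CD4 lowest. Of 4 naive T cell markers, all detected on every array, Il7r, Lef1 and Klf2 were at least 2-fold lower in each iTreg than in naive CD4, while Ccr7 differed by -0.09 with vitamin C and 0.09 without. Of 6 CD8 T and NK cell markers, 3 were detected on each iTreg array and 2 on each ex vivo array, and Cd8a, Ncr1 and Klrb1c were detected on none. Cd8b1 was detected on all 4 arrays, although both ex vivo sorts took CD8- cells, at 10.90 in vitamin C iTreg, 10.34 in conventional iTreg, 11.41 in natural Treg and 11.97 in naive CD4. Nkg7 had 11.23 in vitamin C iTreg, 12.93 in conventional iTreg and 10.46 in natural Treg and was not detected in naive CD4, and Klrd1 had 7.69, 8.68 and 10.88 in vitamin C iTreg, conventional iTreg and naive CD4 and was not detected in natural Treg. Whether CD8 T or NK cells were present was not tested, nor was any part of theirs in the differences of the set. Of 5 B cell markers with a probe, none was detected on either iTreg array and Cd79b alone on natural Treg and naive CD4. Of 4 myeloid markers, Fcgr3 was detected on naive CD4 and none elsewhere. Hba-a1, a red cell marker, was detected on natural Treg and naive CD4 and on neither iTreg array. In RNA from a sorted population, fewer cells that express a gene and less RNA per cell cannot be told apart.

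Most glycolytic enzymes gave a higher signal in iTreg than in the naive CD4 cells they were grown from. In vitamin C iTreg over naive CD4, 19 of 28 compared genes of the set were at least 2-fold higher (67.9%), against 13.8% of 7945 genes, and 2 were lower, against 16%. In conventional iTreg over naive CD4, 19 of 28 were also at least 2-fold higher, against 13.2% of 7963 genes, and 1 was lower, against 14.7%. The median difference of the set was 1.34 with vitamin C and 1.30 without, against -0.09 and -0.08 over all genes. Both comparisons use the same naive array. A gene entered a comparison when either array detected it, so that a gene seen in iTreg alone could only be higher. Among the 23 genes detected on all 4 arrays, 15 were at least 2-fold higher in each iTreg over naive CD4 (65.2%), against 10.3% of 6547 genes with vitamin C and 9.73% without.

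Of 13 compared glycolytic enzymes, 11 were at least 2-fold higher in each iTreg array over naive CD4, and the exceptions were Hk1 and Pfkm. Hk2, the inducible hexokinase that traps glucose in the cell (probe ILMN_1239397, chromosome 6), had a level of 11.81 in vitamin C iTreg, 12.06 in conventional iTreg, 9.76 in natural Treg and 6.68 in naive CD4. It was thus high on both iTreg arrays, between them and naive CD4 on natural Treg, and barely above the lowest detected level of 6.65 on naive CD4. Its fold over naive CD4 was 34.8 for vitamin C iTreg and 41.6 for conventional iTreg, and 18.4 and 21.8 without background correction, which acts most on dim signals. Hk1, the housekeeping hexokinase, stayed between 8.24 and 8.60 on the 4 arrays.

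The phosphofructokinases, which catalyse the committed step, differed by isozyme. Pfkp, the platelet form, had levels of 13.71 in vitamin C iTreg, 13.57 in conventional iTreg, 11.33 in natural Treg and 11.30 in naive CD4. The 2 ex vivo arrays were thus alike and lay far below both iTreg arrays. Pfkl, the liver form, followed the same order of iTreg over ex vivo, with 12.37 in vitamin C iTreg, 12.39 in conventional iTreg, 11.14 in natural Treg and 11.01 in naive CD4. Pfkm, the muscle form, ran the other way, with 9.78 in vitamin C iTreg, 10.06 in conventional iTreg, 10.38 in natural Treg and 10.58 in naive CD4. Its difference from naive CD4 was -0.80 with vitamin C and -0.53 without, short of 2-fold on the probe used. A second Pfkm probe, detected on all 4 arrays, gave -1.21 with vitamin C and -0.66 without. With the Pfkm probes averaged, the difference with vitamin C was -1.0, which is 2-fold. A second Pfkp probe gave 2.37 for vitamin C iTreg over naive CD4, close to the 2.41 of the probe used. A second Pfkl probe was dim, and with the probes averaged the Pfkl difference was 0.83 with vitamin C and 0.80 without, under 2-fold.

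**Figure D1:**
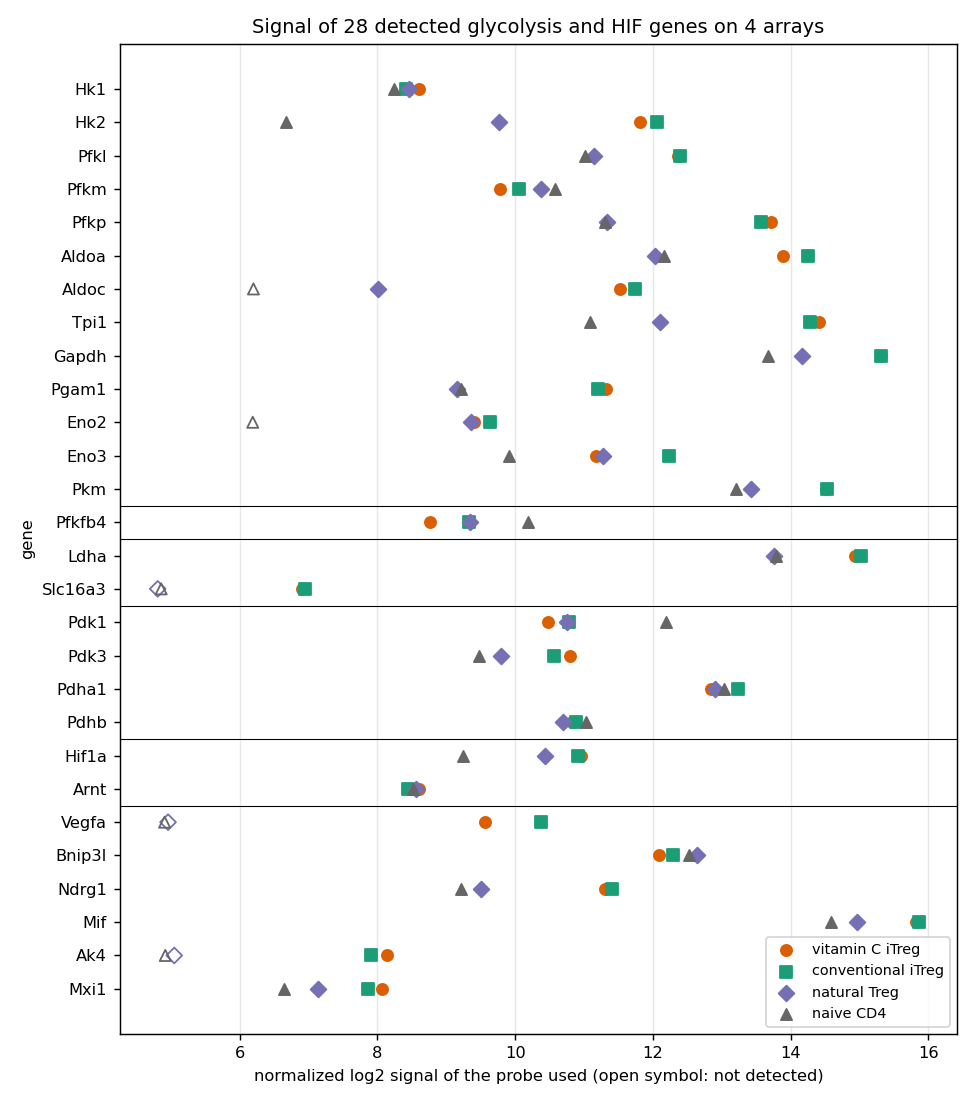
Normalized log2 signal (x axis) of the probe used for each of the 28 detected genes (rows, grouped by role with lines between groups), with 1 symbol per array and open symbols where the array did not detect the gene. Hk2, Aldoc, Tpi1, Pfkp and Vegfa have both iTreg arrays far to the right of naive CD4, while Pdk1 has naive CD4 on the right at 12.19.

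The aldolases, which split the 6-carbon sugar, were both higher in iTreg. Aldoa had levels of 13.89 in vitamin C iTreg, 14.25 in conventional iTreg, 12.03 in natural Treg and 12.16 in naive CD4. Aldoc, the brain-type form, had 11.52 in vitamin C iTreg, 11.74 in conventional iTreg and 8.01 in natural Treg, and was not well above background in naive CD4. It was at least 29.4-fold higher than in naive CD4 with vitamin C and at least 34.1-fold without. A lower bound of this kind sets the undetected array at the higher of its own signal and its lowest detected signal, and it holds on the background-corrected scale alone. Without background correction the bounds for Aldoc were 15.4-fold and 17.8-fold.

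Tpi1, Gapdh, Pgam1 and Pkm, which act after the sugar is split, were higher as well. Tpi1, which interconverts the triose phosphates, had 14.41 in vitamin C iTreg, 14.28 in conventional iTreg, 12.10 in natural Treg and 11.08 in naive CD4, so both iTreg arrays lay above natural Treg, and natural Treg above naive CD4. Its fold over naive CD4 was 10.0 with vitamin C and 9.21 without. A second probe gave log2 differences of 3.59 and 3.61 there, while the remaining one was close to background, with 0.15 and -0.04. With the 3 probes averaged the fold was 5.12 with vitamin C and 4.78 without. Gapdh, often used to scale other transcripts, had 15.32 on both iTreg arrays, 14.17 in natural Treg and 13.67 in naive CD4. It was thus 3.12-fold higher in each iTreg than in naive CD4, and its second probe gave 1.86 with vitamin C and 1.93 without on the log2 scale. Pgam1, phosphoglycerate mutase, had 11.32 in vitamin C iTreg, 11.21 in conventional iTreg, 9.16 in natural Treg and 9.21 in naive CD4. Pkm, pyruvate kinase, had 14.51 in vitamin C iTreg, 14.53 in conventional iTreg, 13.42 in natural Treg and 13.21 in naive CD4, with iTreg again above both ex vivo arrays. Many glycolytic genes have processed copies elsewhere in the mouse genome, and whether the probes also read those was not tested. The single probe of Pgk1, phosphoglycerate kinase, was not well above background on any array.

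The enolases did not divide clearly into cultured and ex vivo arrays. Eno2, the neuronal form, had 9.40 in vitamin C iTreg, 9.63 in conventional iTreg and 9.36 in natural Treg and was not well above background in naive CD4. The 3 Treg arrays were thus within 0.27 of each other, with vitamin C iTreg 0.04 above natural Treg, and naive CD4 stood apart. Eno2 was at least 6.72-fold above naive CD4 with vitamin C and at least 7.92-fold without, and at least 3.89-fold and 4.50-fold when background was not corrected. Eno3, the muscle form, had 11.18 in vitamin C iTreg, 12.23 in conventional iTreg, 11.27 in natural Treg and 9.91 in naive CD4. Conventional iTreg was highest and naive CD4 lowest, with vitamin C iTreg next to natural Treg.

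**Figure D2:**
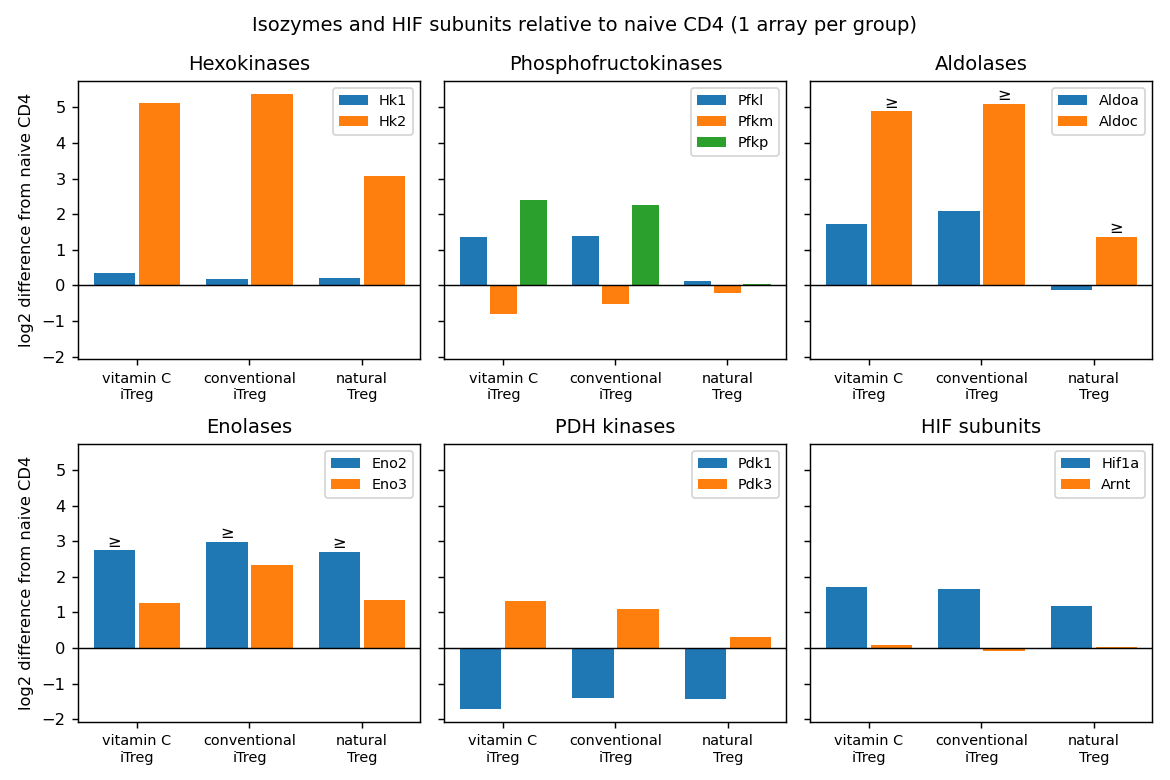
Log2 difference from naive CD4 (y axis) for isozymes and for the HIF subunits in vitamin C iTreg, conventional iTreg and natural Treg (x axis), with 1 array per group and ≥ over a bar that is a lower bound. Hk2 reaches 5.12 and 5.38 in the iTreg arrays beside Hk1 at 0.36 and 0.17, and Pdk1 lies below 0 in all 3 groups while Pdk3 lies above 0.

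Ldha, the lactate dehydrogenase subunit that favours lactate, had a level of 14.93 in vitamin C iTreg, 15.02 in conventional iTreg, 13.76 in natural Treg and 13.79 in naive CD4. Both iTreg arrays were 2.21-fold and 2.36-fold above naive CD4, with and without vitamin C, and the ex vivo arrays differed by 0.02. Slc16a3, the lactate exporter MCT4, was detected on both iTreg arrays (6.91 with vitamin C and 6.95 without) and on neither ex vivo array. It was at least 1.20-fold higher than in naive CD4 with vitamin C and at least 1.23-fold without, and its other 2 probes were detected on no array. Slc16a1, which encodes the carrier MCT1, was not well above background on any array.

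Around pyruvate dehydrogenase the kinases diverged. Pdk1, a kinase that blocks the enzyme and a known HIF target, had 10.48 in vitamin C iTreg, 10.78 in conventional iTreg, 10.75 in natural Treg and 12.19 in naive CD4. All 3 Treg arrays were thus below naive CD4, by 3.26-fold in vitamin C iTreg, 2.65-fold in conventional iTreg and 2.72-fold in natural Treg. Pdk3, a kinase of the same family, had 10.80 in vitamin C iTreg, 10.56 in conventional iTreg, 9.79 in natural Treg and 9.47 in naive CD4, with iTreg highest. The enzyme's own subunits differed little. Pdha1 ranged from 12.85 to 13.23 and Pdhb from 10.70 to 11.03 over the 4 arrays. Pdk2 was not detected.

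Of the enzymes that make fructose 2,6-bisphosphate, the activator of phosphofructokinase, Pfkfb4 was lower on each Treg array than in naive CD4. It had 8.76 in vitamin C iTreg, 9.33 in conventional iTreg, 9.35 in natural Treg and 10.19 in naive CD4. Only the difference between vitamin C iTreg and naive CD4 reached 2-fold, at -1.43. Pfkfb3 was not detected on any array.

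Hif1a, the oxygen-regulated subunit, had 10.96 in vitamin C iTreg, 10.91 in conventional iTreg, 10.43 in natural Treg and 9.24 in naive CD4. The Treg arrays were all above naive CD4, by 3.28-fold in vitamin C iTreg, 3.17-fold in conventional iTreg and 2.28-fold in natural Treg. Its partner Arnt stayed between 8.44 and 8.60. The HIF subunit is controlled mainly through its stability, which a transcript level does not show.

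A further group held HIF targets other than the metabolic genes above, and so not Pdk1, which was lower in iTreg. Of 6 compared, 5 were at least 2-fold higher in each iTreg over naive CD4, against 13.8% of all genes with vitamin C and 13.2% without. Of these 5, Vegfa and Ak4 were detected in iTreg alone, so they could only be higher. Vegfa, the vascular growth factor, had 9.56 in vitamin C iTreg and 10.38 in conventional iTreg and was not well above background on either ex vivo array. It was at least 7.52-fold higher than in naive CD4 with vitamin C and at least 13.2-fold without, or at least 4.29-fold and 7.20-fold when background was not corrected. A second probe (8.19 and 8.81 in the iTreg arrays) was likewise detected in iTreg alone. Ndrg1, a stress-response gene, had 11.31 in vitamin C iTreg, 11.40 in conventional iTreg, 9.51 in natural Treg and 9.22 in naive CD4. Both of its probes put iTreg above the ex vivo arrays. Ak4, a mitochondrial adenylate kinase, was detected in iTreg alone, at 8.14 with vitamin C and 7.90 without. It was at least 2.81-fold above naive CD4 with vitamin C and at least 2.38-fold without, and under 2-fold without background correction, at 0.93 and 0.76 on the log2 scale. Mif, a cytokine, had 15.82 in vitamin C iTreg, 15.87 in conventional iTreg, 14.96 in natural Treg and 14.58 in naive CD4. Its intensity of 61843 in vitamin C iTreg and 61120 in conventional iTreg was close to the highest on those arrays (68354 and 67496), and whether the scanner's range limited it was not tested. Mxi1, which encodes a MYC antagonist, had 8.06 in vitamin C iTreg, 7.87 in conventional iTreg, 7.14 in natural Treg and 6.65 in naive CD4. Without background correction its difference from naive CD4 was under 2-fold, at 0.88 with vitamin C and 0.74 without. Bnip3l, a mitophagy receptor, was the other of the 6, with 12.09 in vitamin C iTreg, 12.29 in conventional iTreg, 12.64 in natural Treg and 12.53 in naive CD4. Bnip3, Higd1a and Car9 were not well above background on any array.

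**Figure D3:**
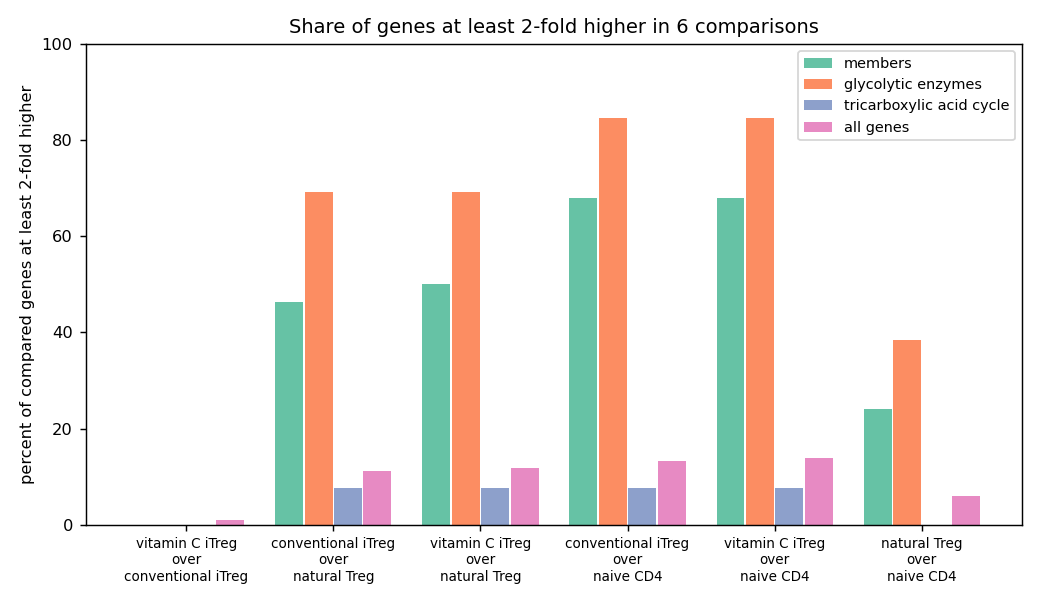
Percent of compared genes at least 2-fold higher (y axis, from 0) in each of 6 comparisons (x axis) for the set, its glycolytic enzymes, tricarboxylic acid cycle genes and all genes. The set reaches 67.9% in both iTreg over naive CD4 comparisons, where all genes reach 13.8% and 13.2%.

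iTreg were also set against natural Treg, a Treg population that was not cultured. In vitamin C iTreg over natural Treg, 14 of 28 genes of the set were at least 2-fold higher, against 11.7% of 8034 genes, and 0 were lower, against 13.0%. In conventional iTreg over natural Treg, 13 of 28 were higher, against 11.1% of 8031 genes, and 0 were lower, against 12%. Slc16a3, Vegfa and Ak4 were detected in iTreg alone, so they could only be higher. Among the 23 genes detected on all 4 arrays, 11 were at least 2-fold higher with vitamin C (47.8%), against 8.14% of 6547 genes. Without vitamin C 10 were higher (43.5%), against 7.58%. With median centring of the arrays in place of quantile normalization, 14.2% of all genes were higher and 10.3% lower with vitamin C, and 13.3% were higher and 9.51% lower without. The median difference of the set was 0.96 with vitamin C and 0.93 without. Aldoc was 11.5-fold and 13.3-fold higher, with and without vitamin C, and Vegfa at least 9.47-fold and at least 16.7-fold. Hk2 was 4.13-fold and 4.94-fold higher, Pfkp 5.20-fold and 4.73-fold, and Tpi1 4.96-fold and 4.55-fold, again with vitamin C given first. Pgam1 was 4.45-fold and 4.13-fold higher. Pfkl, Gapdh, Pkm and Ldha had differences between 1.08 and 1.26 on both iTreg arrays. With its probes averaged Pfkl was under 2-fold, at 0.86 with vitamin C and 0.83 without. Without background correction Vegfa was at least 4.79-fold and at least 8.03-fold higher. Hif1a was 0.53 above natural Treg with vitamin C and 0.48 without, under 2-fold. Both comparisons share the natural Treg array, and the culture cannot be told apart from the type of Treg.

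Across the whole set, both iTreg arrays lay above both ex vivo arrays for 19 of 28 genes, against 35.1% of 8236 genes. They lay below for 3 genes (Pfkm, Pfkfb4 and Bnip3l), against 42.6%, and overlapped for 6 (Hk1, Eno3, Pdk1, Pdha1, Pdhb and Arnt). No margin was applied, so near ties count. Eno2 is among those above at 9.40 in vitamin C iTreg against 9.36 in natural Treg. Pfkfb4 is among those below at 9.33 in conventional iTreg against 9.35 in natural Treg. Slc16a3, Vegfa and Ak4, among those above, were detected in iTreg alone and entered the count only through the iTreg arrays. The comparisons of conventional iTreg with naive CD4 and of vitamin C iTreg with natural Treg use no array in common, although all 4 were normalized together. In both, 14 of 28 genes were at least 2-fold higher (50%), against 9.24% of 7761 genes, and 0 were 2-fold in opposite directions. Of the 14, Vegfa and Ak4 were detected in iTreg alone, so they could only be higher. Pfkl, also of the 14, was under 2-fold in both comparisons with its probes averaged. Without background correction Pdk3 was at 0.93 in vitamin C iTreg over natural Treg. Ak4 was then at 0.76 in conventional iTreg over naive CD4. Pearson's r between these comparisons across genes was 0.79 for the 28 genes and 0.83 for all 7761, so the set followed the pattern of all genes in this respect. Genes are not independent replicates.

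**Figure D4:**
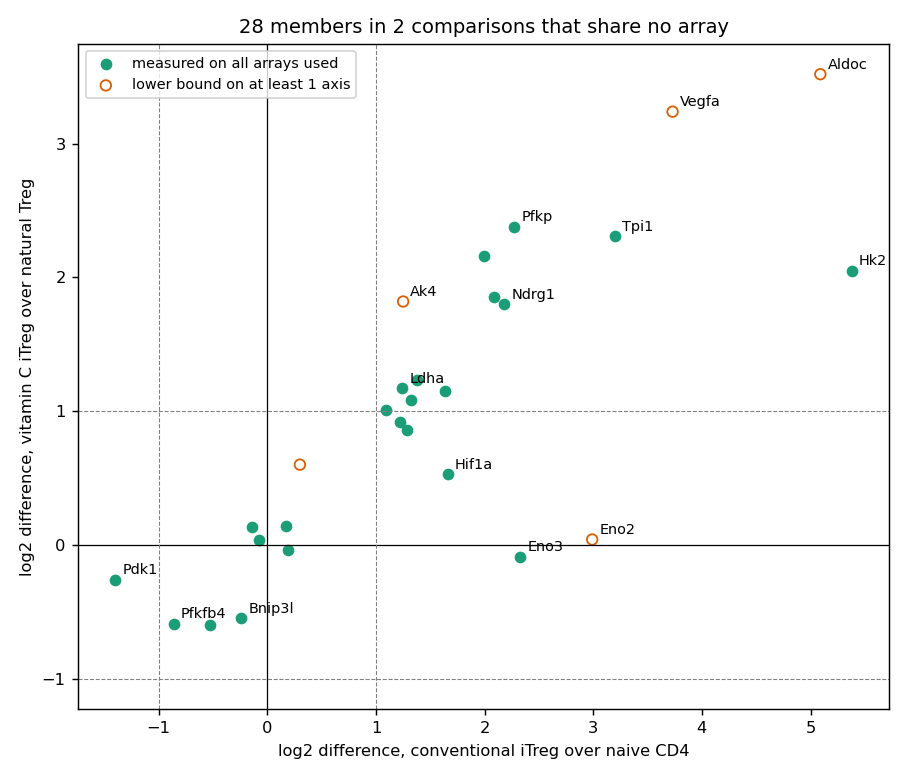
Log2 difference of vitamin C iTreg over natural Treg (y axis) against that of conventional iTreg over naive CD4 (x axis) for 28 genes, 1 point per gene, dashed lines at 2-fold and open circles for lower bounds. Eno2 and Eno3 lie near 0 on the y axis but at 2.99 and 2.33 on the x axis, while Hk2 reaches 2.05 and 5.38.

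Natural Treg over naive CD4 compared cells that were both sorted without culture. Here 6 of 25 genes of the set were at least 2-fold higher, against 6.03% of 7582 genes, and 1 was lower, against 2.03%. Aldoc and Eno2 were not detected in naive CD4, so they could only be higher. Among the 23 genes detected on all 4 arrays, 4 were at least 2-fold higher (17.4%), against 4.25% of 6547 genes. There 1 was lower (4.35%), against 1.36%. The median difference was 0.22, against -0.05 for all genes. Hk2 was 8.43-fold higher, Eno2 at least 6.55-fold, Eno3 2.57-fold, Aldoc at least 2.56-fold, Hif1a 2.28-fold and Tpi1 2.03-fold. Pdk1 was the lower one, at -1.44. Without background correction Hk2 was 4.80-fold and Eno2 at least 3.80-fold higher. Aldoc (0.84) and Tpi1 (0.99) were then under 2-fold, and so was Tpi1 with median centring (0.94). The isozymes Hk1, Pfkl, Pfkm, Pfkp and Aldoa differed by between -0.20 and 0.22, Ldha by -0.02, and Pkm by 0.22. Of the genes higher here, Hk2, Aldoc and Tpi1 were higher still in both iTreg, while Eno2 was not 2-fold different between either iTreg and natural Treg.

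Vitamin C iTreg over conventional iTreg showed small differences. Of 28 genes, 0 were at least 2-fold higher, against 0.941% of 7756 genes, and 1 was lower, against 0.812%. Above 0 were 9 genes and below 0 were 18, with a median of -0.05 and a range of -1.06 to 0.24. Over all genes 3751 were above 0 and 3966 below, with a median of -0.01. Eno3 was lower by 2.08-fold, at 11.18 in vitamin C iTreg and 12.23 in conventional iTreg, and -0.99 with median centring, just under 2-fold. It has 1 probe, so no second reading was at hand. Vegfa differed by -0.82 on the probe used and by -0.61 on its second probe. Pfkfb4 followed at -0.56, Pdha1 at -0.37 and Aldoa at -0.36. The highest were Ak4 and Pdk3, both at 0.24. Hk2 differed by -0.26, Ldha by -0.09, Hif1a by 0.05 and Gapdh by 0.00. Of 9 genes with several probes detected on both arrays, the probes shared a sign in 5. The median gap between probes of a gene was 0.15 over 1948 genes of the array and 12 of the 28 differences were smaller than that.

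**Figure D5:**
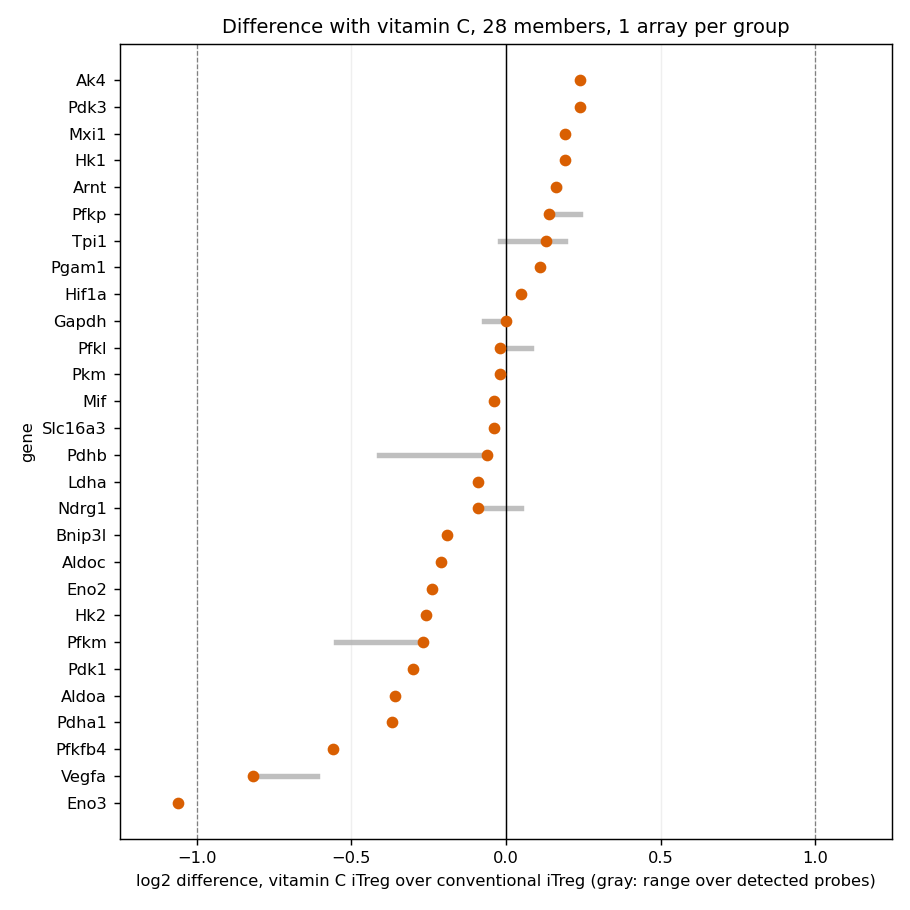
Log2 difference of vitamin C iTreg over conventional iTreg (x axis) for 28 genes sorted by value (y axis), with gray bars for the range over detected probes of a gene and dashed lines at 2-fold. Eno3 at -1.06 is past 2-fold, Vegfa follows at -0.82, and the other genes lie between -0.56 and 0.24.

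The regulators of HIF and further HIF targets were taken from lists made for this purpose. Of 8 regulators, 4 were compared: Hif1an, Epas1, Hif3a and Arnt2 were detected on no array. Egln3, a prolyl hydroxylase that is itself a HIF target and is on both lists, had 12.97 in vitamin C iTreg, 12.41 in conventional iTreg and 8.73 in natural Treg and was not well above background in naive CD4. It was at least 80.3-fold above naive CD4 with vitamin C, at least 54.3-fold without, and at least 4.24-fold in natural Treg, and 1.48-fold higher in vitamin C iTreg than in conventional iTreg. Without background correction its lower bounds over naive CD4 on the log2 scale were 5.36 with vitamin C, 4.81 without and 1.39 in natural Treg. Egln1, the main oxygen sensor, differed from natural Treg by 1.23 with vitamin C (0.80 without background correction) and 0.99 without, and from naive CD4 by 0.65 and 0.41. Egln2 differed from naive CD4 by -0.71 and -0.57. Vhl, which binds the hydroxylated subunit, was 1.45-fold and 2.01-fold lower than in naive CD4. The second was under 2-fold with median centring (-0.72), without background correction (-0.61) and at offset 50 (-0.82). Of 11 further HIF targets compared, 5 were at least 2-fold higher (45.5%) and 1 was lower (9.09%) in each iTreg over naive CD4. Over all genes, 13.8% were higher with vitamin C and 13.2% without. The share lower over all genes was larger than among these targets, at 16% with vitamin C and 14.7% without. Of the 11, 4 were not detected in naive CD4, so they could only be higher. Bhlhe40, a transcriptional repressor, was at least 64.3-fold higher with vitamin C and at least 74.4-fold without, or 33.1-fold and 38.1-fold when background was not corrected. Anxa2, an annexin, was 41.1-fold and 29.7-fold higher, and the transferrin receptor gene Tfrc 5.29-fold and 5.66-fold. The lower gene was P4ha1, a collagen prolyl hydroxylase, at -1.14 and -1.03. It was under 2-fold with median centring, at -0.95 and -0.80, and without background correction, at -0.88 and -0.80. At offset 50 it was at -0.93 without vitamin C. It was named after its values were seen.

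Most genes of cell division were, like most of the set, higher in iTreg than in naive CD4. In vitamin C iTreg over conventional iTreg, all 6 compared proliferation markers were above 0, with a median of 0.14. The median of the set there was -0.05. Both medians were smaller in size than the median gap between probes of a gene in that comparison, 0.15. Of 6 compared proliferation markers, 5 were at least 2-fold higher in each iTreg over naive CD4. Over all genes the share was 13.8% with vitamin C and 13.2% without. The median of the markers was 3.51 with vitamin C and 3.37 without. In natural Treg over naive CD4, 2 of the 6 were higher, against 6.03% of all genes. Birc5 stood at 5.17 in vitamin C iTreg over naive CD4, 4.94 in conventional iTreg and 2.15 in natural Treg, and at 4.42 and 4.19 in the iTreg arrays without background correction. Top2a, Cdk1 and Mcm5 followed, at 4.73, at least 4.80 and 2.29 with vitamin C. The summed intensity of the 7 markers with a probe was 39236 in vitamin C iTreg, 32046 in conventional iTreg, 7879 in natural Treg and 5101 in naive CD4, and Ccna2 was detected on no array. The part of proliferation in the differences of the set was not tested.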

How the data were processed

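RNA of 4 sorted mouse T cell populations, 1 array each, was measured on Illumina bead arrays. Per the file headers, the authors deposited for each probe an average intensity and a detection p-value, and the submitters' processing notes name GenomeStudio 2011.1. The authors' deposited log2 values equal the quantile-normalized log2 intensity within 5e-07 and served as an alternative. Here the intensities were corrected with limma 3.58.1 (neqc, offset 16, background inferred from the detection p-values), quantile normalized and put on the log2 scale.

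Of 25697 probes, 23978 had 1 symbol, 0 had several and 1719 were unnamed. The set comprised all probes whose symbol was listed. The probe with the highest mean represented a gene, compared where the detection p-value was under 0.01 on either array, and a log2 difference of 1 was called. An undetected array was set at the higher of its own signal and its lowest detected signal, giving a lower bound. The calling step was tested on simulated data.

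All members with a probe were named. From other lists, the genes of lists of at most 8 and otherwise the 4 compared genes with the largest difference in conventional iTreg over naive CD4 were named, except that most undetected cell type markers are given by count. The members and lists were chosen with earlier results of these data known, and the restriction to genes detected on all 4 arrays was added after seeing the data. The motif search used 2 cores on both strands of RefSeq promoters. The 8 alternatives were no background correction, an offset of 50, median centring, the authors' values, a detection limit of 0.05, detection on both arrays, no detection filter and averaged probes. With 1 array per group there is no SD and no test, and the number of arrays limits the precision.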

Additional observations from a re-analysis of the deposited data

How the results depend on the processing

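No paired analysis was possible because each group has 1 array and no result comes from a test. Over 8 alternatives, 142 of the set's counts and medians stayed within the margin and 2 moved by more. The margin was at most 1.5 times for a count and under the median gap between probes of a gene for a median. The authors' values are in effect those without background correction, so these alternatives count the same result again. Requiring detection on both arrays only drops genes, so no value of a single gene could move there. With median centring, 0 genes were at least 2-fold lower in vitamin C iTreg over conventional iTreg, since Eno3 came to -0.99. With no detection filter, the median in vitamin C iTreg over natural Treg was 0.53, over a set that then includes undetected genes. The count of higher genes ran over the alternatives from 15 to 20 in each iTreg over naive CD4, from 12 to 15 and from 11 to 14 over natural Treg with and without vitamin C, and from 4 to 6 in natural Treg over naive CD4. Of the values for single genes of the set, 1166 stayed within the margin, 136 moved and none that was past 2-fold changed sign, and of those for other listed genes 2843 stayed and 424 moved. Slc16a3 passed 2-fold over naive CD4 at the detection limit of 0.05, at 1.01 with vitamin C and 1.05 without, and Pdk3 fell short over natural Treg with vitamin C at offset 50, at 0.98. Over all genes, the share higher and lower with vitamin C was 0.438% and 0.258% without background correction, the share lower in natural Treg over naive CD4 was 1.12%, and median centring moved the median by over 0.1, to 0.08 in vitamin C iTreg over natural Treg and to 0.067 in conventional iTreg over natural Treg. With detection required on both arrays, 10.2% and 9.63% of all genes were higher in iTreg over naive CD4 with and without vitamin C. Signal over background limits the dim genes, since Hk2 in naive CD4 lay just above the lowest detected level and bounds replace folds for Aldoc, Eno2, Vegfa and Ak4.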

Other observations

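Genes of neighbouring pathways are given as values. Of 13 compared tricarboxylic acid cycle genes, 1 was at least 2-fold higher in each iTreg over naive CD4 (7.69%). Over all genes the share was larger, 13.8% with vitamin C and 13.2% without. The median of the 13 genes was 0.25 with vitamin C and 0.15 without. The higher gene was Suclg2, a subunit of succinyl-CoA ligase, at 1.21 in both. Fh1, which encodes fumarase, stood at 0.55 and 0.61, Sdhc, a succinate dehydrogenase subunit, at 0.29 and 0.39, and Cs, citrate synthase, at 0.25 and 0.34. Of 4 compared pentose phosphate genes, the medians were 0.92 with vitamin C and 1.01 without. Rpia stood at 1.41 and 1.04, Pgls at 0.98 and 1.14, Tkt at 0.86 and 0.98, and Taldo1 at -0.48 and -0.43. Dlat, the acetyltransferase of the pyruvate dehydrogenase complex, was lower, at -1.07 and -1.01, but under 2-fold without background correction, at -0.79 and -0.76, while Dld, Pdp1 and Pdp2 were within 2-fold and Pdhx was not detected. Mpc1, Mpc2, G6pdx, Pgd and Rpe were not analysed here.

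Pygl, a glycogen phosphorylase, was 9.07-fold and 14.1-fold above natural Treg with and without vitamin C, and 4.76-fold and 7.13-fold without background correction. Its level was 9.60 in vitamin C iTreg, 10.24 in conventional iTreg and 6.42 in natural Treg, and it was not well above background in naive CD4. Pcx, pyruvate carboxylase, was detected in iTreg alone, at 8.70 with vitamin C and 8.83 without. G6pc3 and Pgm1 were within 2-fold of naive CD4, at 0.74 and 0.90 with vitamin C. Pfkfb2, of the family of Pfkfb4, was lower in iTreg than on both ex vivo arrays. It had 6.23 in vitamin C iTreg, 6.39 in conventional iTreg, 8.18 in natural Treg and 9.25 in naive CD4. Adpgk, an ADP-dependent glucokinase, had 12.53 in vitamin C iTreg, 11.73 in conventional iTreg, 11.04 in natural Treg and 11.13 in naive CD4, and with its probes averaged vitamin C iTreg was 0.55 above naive CD4. Myc, a transcription factor that drives growth, was 3.38-fold and 4.74-fold above naive CD4 with and without vitamin C and differed by -0.49 between vitamin C iTreg and conventional iTreg. Max, Mtor and Rheb differed from naive CD4 by less than 2-fold in each iTreg, except Max with its probes averaged (1.01 with vitamin C), and Rptor was not detected.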
